A study of Sus scrofa with 42 samples.

Results

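PCNA, the MCM2 to MCM7 subunits of the replicative helicase, and the licensing genes CDC6, CDT1 and GMNN were followed in single blastomeres of pig embryos. The 10 genes were selected on the fall of PCNA, in FPKM, in most IVF 4-cell blastomeres, together with its functional partners, so that fall is described here without a test. Of the 10, 9 were matched by gene name among the 15351 genes of the expression table, and MCM5 was not analysed here. CDT1 was listed at 0 in all 42 cells, and the other 8 genes passed the filter on low values (3 or more cells with 1 FPKM or more) and were tested. FPKM is fragments per kilobase of the length used for a gene, scaled to the mapped reads of each cell. Levels of different genes are set beside one another on that scale. Such comparisons depend on the lengths used, which were 2443 bases for PCNA and 7630 for MCM7.

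The embryos came from oocytes fertilized in vitro (IVF) or activated without sperm (parthenogenetic, PA). For PA, oocytes received electric pulses followed by 6-dimethylaminopurine and cytochalasin B, and these embryos carry no paternal genome. Oocytes of both methods were matured in vitro from slaughterhouse ovaries and were stripped of cumulus cells. Each method gave 3 1-cell embryos, 6 blastomeres of 3 2-cell embryos, 9 blastomeres of 3 4-cell embryos, and 3 blastomeres of a single 8-cell embryo, 42 cells of 20 embryos in all. From expression of Y-chromosome genes, the paper classed most of the 3 IVF 4-cell embryos and the IVF 8-cell embryo as male. It classed the other IVF embryos and all PA embryos as female. Sex therefore cannot be told apart from method at the 8-cell stage, and differs with it in part at the 4-cell stage. Embryos were the replicates, and an embryo's value was the mean of its blastomeres. Between 5641471 and 19518553 reads on genes per cell, with a median of 12285585, were recovered from the steps of the FPKM values. Oocyte markers matched the labels: their summed FPKM averaged 1123 in IVF 1-cell embryos, with BTG4, a gene of maternal mRNA clearance, the most abundant at 730 FPKM, and it averaged 76.6 in IVF and 56.6 in PA 8-cell blastomeres. Of the 6 matched cumulus and granulosa markers, TNFAIP6, CD44 and INHBA were below 0.05 FPKM on average in all 8 groups, and the list summed to at most 10.7 FPKM on average in any group, with VCAN the most abundant, or HAS2 in PA 4-cell embryos. The single matched sperm marker, AKAP4, was listed at 0 in IVF 1-cell embryos and reached 9.02 FPKM in a PA 4-cell blastomere.

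A pair of PA 4-cell libraries stands apart. The log2 profile of PA 4-cell blastomere 1-4 correlated with that of PA 2-cell blastomere 1-2 at r = 0.999 (Pearson), and PA 4-cell 2-1 with PA 2-cell 2-1 at r = 0.999, while the highest of the other 859 of 861 pairs of cells was 0.908. These blastomeres are therefore near repeats, and the tests that involve PA 4-cell embryos are given with and without PA 4-cell 1-4 and 2-1, as are the counts and correlations that they enter. The labels do not show which copy of each pair has the right stage, so calls with all cells that are lost without the PA 2-cell copies are given too. Calls made only without PA 4-cell 1-4 and 2-1 depend on the choice to leave out those copies.

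Replication needs origins that are licensed before S phase. CDC6 and CDT1 help the origin recognition complex to load the ring of MCM2 to MCM7 onto DNA, and geminin, the product of GMNN, binds CDT1 and prevents loading again in the same cycle. Once the helicase opens the fork, PCNA, a ring-shaped sliding clamp, holds DNA polymerases and many repair and chromatin factors on the template. The first cleavage divisions draw on mRNA and protein stored in the oocyte, and in pigs the main activation of the embryo's own genome is known around the 4-cell stage.

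PCNA was by far the most abundant member. It was highest among the tested members in 35 of 42 cells, and in the 18 1- and 2-cell stage cells without exception. In IVF 1-cell embryos it was 2952, 1012 and 914 FPKM (1626 ± 1150, SD, n = 3 embryos), rank 2 among nuclear genes by group mean, and in PA 1-cell embryos it was 1809, 1802 and 1984 FPKM (1865 ± 103, n = 3), also rank 2. The 6 IVF 2-cell blastomeres lay between 1011 and 3860 FPKM, with embryo means of 2539, 1442 and 1122, and the 6 PA 2-cell blastomeres between 1441 and 2252, with embryo means of 2157, 1456 and 1625. From 1- to 2-cell, PCNA changed by 0.20 ± 0.86 (log2 fold change ± SE) in IVF and by -0.11 ± 0.86 in PA embryos, without passing the test (limma, adjusted p = 1 in both). The order of the group means was PA 1-cell, PA 2-cell, IVF 2-cell, IVF 1-cell, PA 4-cell, IVF 4-cell, PA 8-cell, IVF 8-cell, and the embryo values, or cell values at the 8-cell stage, of neighbours in that order overlapped throughout. Without the repeats the PA 4-cell mean was 401 FPKM, below the IVF 4-cell mean of 549, so that these groups changed places, and the values of neighbours still overlapped.

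**Figure D1:**
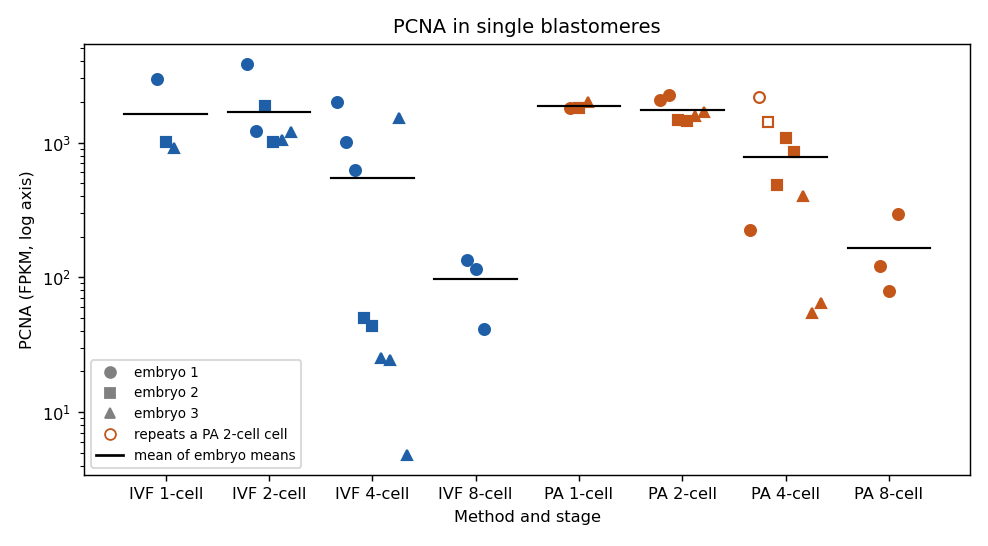
PCNA in each of the 42 cells, in FPKM on a log axis, by method and stage. Symbols give the embryo number, open symbols the PA 4-cell blastomeres that repeat a PA 2-cell blastomere, and bars the mean of embryo means. The 1- and 2-cell stage values are 914 FPKM or higher, and the highest and lowest blastomeres of IVF 4-cell embryo 3 differ 317-fold.

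At the IVF 4-cell stage, PCNA differed among sister blastomeres. The 3 blastomeres of embryo 1 had 2001, 1005 and 625 FPKM. The 2 of embryo 2 had 49.6 and 43.3 FPKM. Of the 4 of embryo 3, blastomere 3-3 had 1513 FPKM and the others 25.3, 24.3 and 4.78. PCNA was thus below the lowest IVF 2-cell blastomere in 7 of 9 and below 100 FPKM in 5 of 9. The ratio of the highest to the lowest sister in embryo 3 was 317. Spread between sisters was common in these embryos: the range over sisters (log2 of FPKM + 1, averaged over the 3 embryos) was 1.89 for the median tested gene, and 3.30 for PCNA, which was chosen for this pattern. These lowest values rest on 296 to 2453 reads, which after amplification are not independent molecules. The embryo means were 1210, 46.4 and 392 FPKM, and the log2 fold change from 2- to 4-cell was -2.50 ± 0.86 over 3 embryos each, given as a description. It was -1.22 without IVF 4-cell embryo 2. In this step 1.11% of all tested genes were called. No call is given for the members there, since the step chose PCNA, and PCNA was left out of the counts of calls in the other comparisons with IVF 4-cell embryos.

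At the PA 4-cell stage, the 7 blastomeres other than the repeats had 225 FPKM in embryo 1, 483, 1074 and 854 in embryo 2, and 403, 54.1 and 64.6 in embryo 3. All 7 were below the lowest PA 2-cell blastomere, and 2 were below 100 FPKM. The repeats carried 2194 and 1427 FPKM, as their 2-cell counterparts did. With them, the change from 2- to 4-cell was -1.55 ± 0.86 (adjusted p = 0.555), and without them -2.44 ± 0.84 (adjusted p = 0.0854), so PCNA did not pass the test in either case. With all cells but without PA 4-cell embryo 3, it was -0.68. Share of mitochondrial FPKM ran opposite to PCNA across the PA 4-cell blastomeres (Pearson's r = -0.857, n = 9, and -0.798, n = 7, without the repeats), as a description over cells that share embryos. In IVF 4-cell blastomeres it did not (r = 0.209, n = 9), and reads on genes gave r = 0.0237. In PA 4-cell blastomeres reads on genes gave r = 0.573 (n = 9), and 0.0433 (n = 7) without the repeats. The part of mitochondrial share and depth in the PA values was not tested.

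At the 8-cell stage PCNA was low in both methods. IVF blastomeres had 134, 115 and 41.4 FPKM, rank 196 among nuclear genes, and PA blastomeres had 122, 78.8 and 295 FPKM, rank 104. The values of the methods overlapped. In PA embryos PCNA changed from the 4-cell stage by -1.82 ± 1.21 (adjusted p = 0.477), and by -0.93 ± 1.19 (adjusted p = 0.921) without the repeats. The IVF step was -1.53 ± 1.21, as a description, and was -0.48 without IVF 4-cell embryo 1 and -2.82 without embryo 2. Both 8-cell groups are 1 embryo, whose spread is assumed to be that of the other groups.

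The 5 measured helicase subunits showed no close correlation with PCNA or with one another. Over 20 embryos, the correlation of log2 values with PCNA was -0.43 for MCM3, -0.04 for MCM2, 0.01 for MCM4, 0.26 for MCM7 and 0.28 for MCM6. Without the repeats it was 0.03 for MCM7, -0.43 for MCM3, 0.04 for MCM2, 0.08 for MCM4 and 0.34 for MCM6. Among the 28 pairs of tested members the median was -0.11, and -0.01 without the repeats, and 0 pairs exceeded 0.5 in either case. These points share libraries and depth and are descriptions, with no value for all tested genes beside them. Values near 0 enter them: MCM2 had at least 1 FPKM in 13 of 42 cells. At least 1 FPKM of all 5 subunits was found in 7 of 18 1- and 2-cell stage cells and in 0 of 24 4- and 8-cell stage blastomeres, where 17 of 24 had 2 subunits or fewer, and 17 of 22 without the repeats. The 7 cells were 2 of 3 IVF 1-cell, 4 of 6 IVF 2-cell, 1 of 3 PA 1-cell and 0 of 6 PA 2-cell stage cells. Detection was also lower at the 4-cell stage in the table as a whole: the median tested gene had at least 1 FPKM in 50% of IVF 2-cell and 22.2% of IVF 4-cell blastomeres, and in 33.3% and 22.2% in PA (14.3% without the repeats). The median member was at 100% and 22.2% in IVF, and at 58.3% and 38.9% in PA (21.4% without the repeats), and the members were not tested against other genes. In an amplified single cell, a lost transcript and an absent one cannot be told apart.

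**Figure D2:**
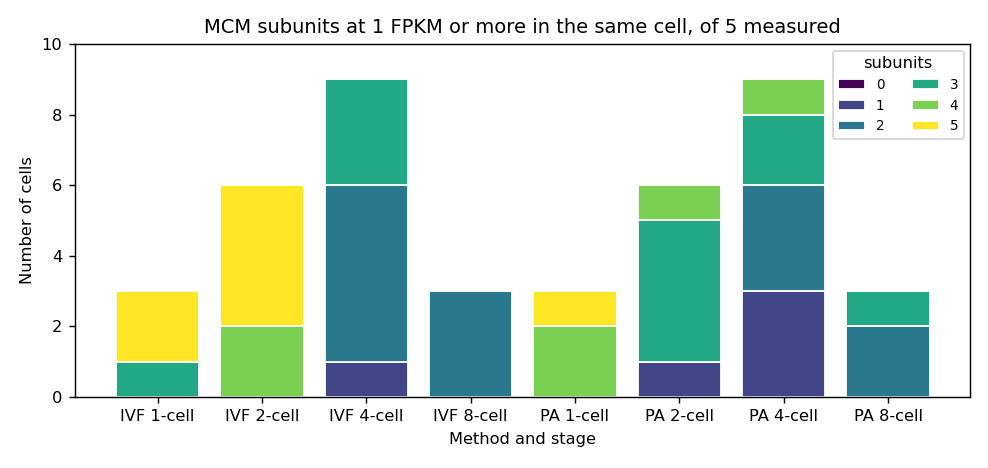
Number of the 5 measured MCM subunits with at least 1 FPKM in the same cell, by method and stage; each bar counts cells. All 5 together appear in 7 cells of the 1- and 2-cell stages and in none of the 24 later blastomeres.

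**Figure D3:**
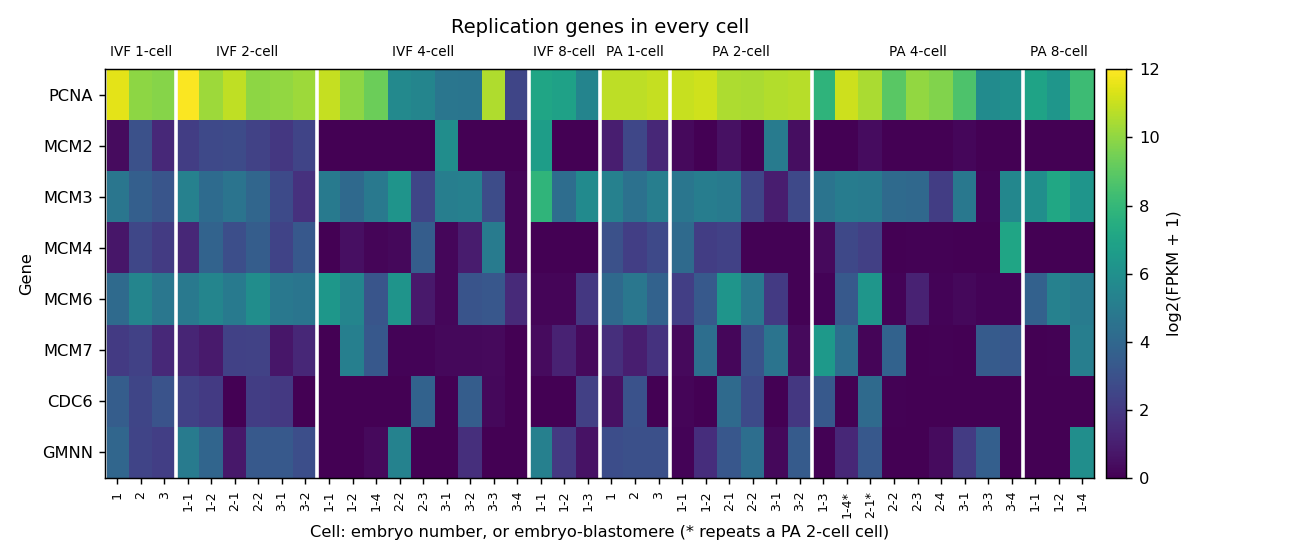
log2(FPKM + 1) of the 8 tested members (rows) in the 42 cells (columns, by group, with asterisks at the repeats). PCNA is bright through the 2-cell stage, MCM3 is present in nearly every cell, and MCM2, MCM4, MCM7, CDC6 and GMNN are present in some 4- and 8-cell blastomeres and nearly absent from their sisters.

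MCM3 was the subunit found most widely. It had at least 1 FPKM in 39 of 42 cells, and its lowest values were 0.0718 FPKM in PA 4-cell blastomere 3-3 and 0.104 in IVF 4-cell 3-4. IVF embryo means were 25.0, 11.3 and 8.08 FPKM at 1-cell, 27.6, 19.2 and 3.90 at 2-cell, and 24.6, 38.4 and 19.0 at the 4-cell stage. The IVF 8-cell blastomeres had 233, 18.6 and 52.2 FPKM, and the PA 8-cell blastomeres 59.9, 140 and 76.7. Every PA 8-cell value was above the highest PA 4-cell value of 45.9, while IVF 8-cell and 4-cell values overlapped. The PA 8-cell values come from a single embryo, and the share of all tested genes with such a gap is not given. The fitted changes were 1.91 ± 1.08 for IVF (adjusted p = 0.369) and 2.00 ± 1.08 for PA embryos (adjusted p = 0.327, and 0.305 without the repeats, where the change was 2.23 ± 1.13), and neither passed the test.

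For MCM6, values of IVF and PA blastomeres overlapped at the 4-cell stage and did not overlap at the 8-cell stage. Each method is 1 embryo there, and the share of all tested genes without overlap is not given. Nothing is read from that gap. In PA 1-cell embryos MCM6 was 15.9, 26.4 and 12.9 FPKM and in IVF 1-cell embryos 16.7, 43.7 and 25.6. The 6 IVF 2-cell blastomeres lay between 24.3 and 58.9, and the 6 PA 2-cell blastomeres between 0.0600 and 75.1. At the 4-cell stage, IVF blastomeres had 81.7, 43.6 and 8.00 FPKM in embryo 1, 73.5 and 0.778 in embryo 2, and 0.157, 7.59, 8.54 and 1.71 in embryo 3. The 7 PA blastomeres other than the repeats had 0.0742 in embryo 1, 0.0721, 1.22 and 0.0740 in embryo 2, and 0.205, 0.0898 and 0.0819 in embryo 3, from 6 to 107 reads each. The repeats carried 9.36 and 76.9 FPKM. At the 8-cell stage IVF blastomeres had 0.123, 0.103 and 2.82 FPKM and PA blastomeres 12.2, 37.7 and 30.8.

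With all cells, MCM6 did not pass the test in any comparison: IVF against PA 4-cell embryos gave 2.06 ± 1.07 (adjusted p = 0.415), PA 8-cell against 4-cell 2.45 ± 1.52 (adjusted p = 0.422), IVF 8-cell against 4-cell -3.39 ± 1.52 (adjusted p = 0.217), and the difference between the methods in that step -5.85 ± 2.14 (adjusted p = 0.169). Without the repeats, MCM6 was higher in IVF than in PA 4-cell embryos by 4.13 ± 0.95 (limma, adjusted p = 0.017), rose from PA 4- to 8-cell by 4.53 ± 1.34 (adjusted p = 0.0363), and the step differed between methods by -7.92 ± 1.89 (adjusted p = 0.0276). Without them, the fall from PA 2- to 4-cell was -3.05 ± 0.95 (adjusted p = 0.0561), and with them -0.98 ± 1.07 (adjusted p = 0.851). Leaving them out changed how many genes were called at large: from 0.554% to 4.07% in IVF against PA 4-cell, from 9.99% to 9.72% in PA 8-cell against 4-cell, and from 2.86% to 2.94% in the difference between the methods. Each 8-cell group is 1 embryo, so the calls to the 8-cell stage assume that it varies as embryos of the other groups do. The repeats belong to PA 4-cell embryos 1 and 2, and embryo 3, which has none, had a mean of 0.125 FPKM. With the PA 2-cell copies left out instead, MCM6 was not called in these 3 comparisons (adjusted p = 0.416, 0.408 and 0.162).

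**Figure D4:**
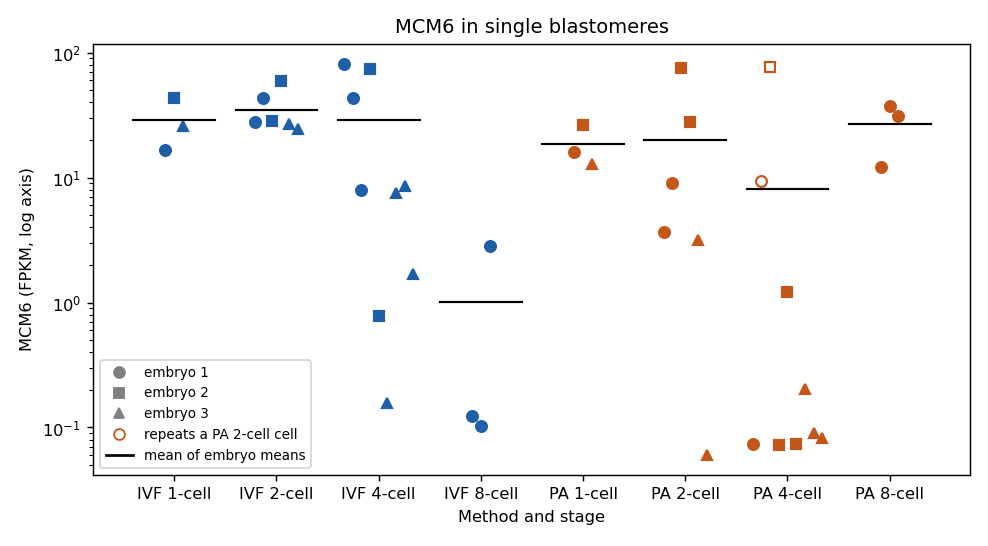
MCM6 in each of the 42 cells, in FPKM on a log axis, by method and stage, with symbols for embryos, open symbols for the repeats and bars for the mean of embryo means. Apart from the repeats, PA 4-cell blastomeres lie at 1.22 FPKM or lower, and PA 8-cell blastomeres at 12.2 or higher.

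**Figure D5:**
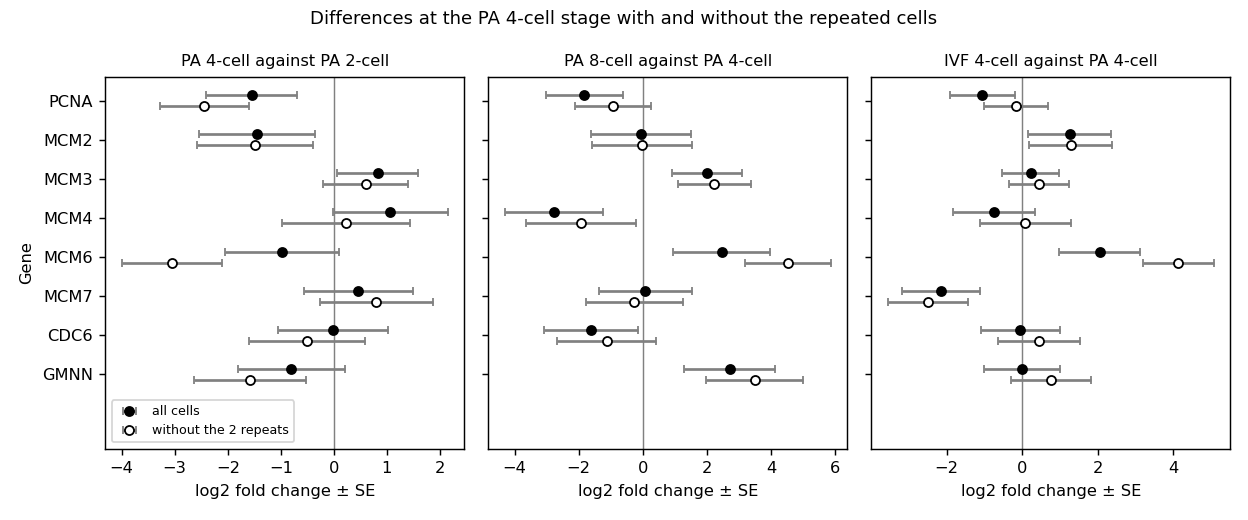
log2 fold change ± SE of the 8 tested members in 3 comparisons that involve PA 4-cell embryos, with all cells (filled) and without the 2 repeats (open). Of the 8 genes, MCM6 moves most when the repeats are left out, to -3.05, 4.53 and 4.13.

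The upstream sequences of MCM6, MCM3 and PCNA are shown, as the 3 members described most fully here. All are textbook targets of E2F factors, which drive S-phase genes. Each is the 250 bases before the RefSeq gene start on Sscrofa11.1, 5′ to 3′ on the gene's strand: MCM6 at chr15:15923388-15923637 (+), MCM3 at chr7:46104426-46104675 (-) and PCNA at chr17:14142585-14142834 (-). Capitals mark matches on either strand to any of 4 E2F-like motifs, TTTCCCGC, TTTGGCGC, TTTCGCGC and TTTGCCGC.
MCM6: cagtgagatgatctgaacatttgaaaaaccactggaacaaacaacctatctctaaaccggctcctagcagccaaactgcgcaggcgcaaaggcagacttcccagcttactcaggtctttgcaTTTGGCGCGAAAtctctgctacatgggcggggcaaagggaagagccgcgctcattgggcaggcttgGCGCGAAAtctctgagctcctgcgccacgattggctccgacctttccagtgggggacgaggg
MCM3: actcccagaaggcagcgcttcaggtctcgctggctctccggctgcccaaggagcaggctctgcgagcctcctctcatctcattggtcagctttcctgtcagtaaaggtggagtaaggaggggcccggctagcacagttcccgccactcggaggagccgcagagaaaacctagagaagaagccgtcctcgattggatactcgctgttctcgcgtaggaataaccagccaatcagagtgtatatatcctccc
PCNA: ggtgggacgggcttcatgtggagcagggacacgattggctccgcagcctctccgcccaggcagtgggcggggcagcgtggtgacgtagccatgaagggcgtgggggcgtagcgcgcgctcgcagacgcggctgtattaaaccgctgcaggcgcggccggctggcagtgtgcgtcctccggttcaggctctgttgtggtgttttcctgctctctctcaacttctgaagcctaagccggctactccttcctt
MCM6 has 3 matches, TTTGGCGC on the gene's strand 128 bases before the start, and TTTCGCGC on the opposite strand at 124 and 62 bases, of which the first overlaps TTTGGCGC. MCM3 and PCNA have none of these letters in this window. Among the 9 matched members, MCM6 and CDT1 have a match, and of 19559 windows of protein-coding genes on chromosomes 2.81% hold any of the 4. A match is a string of letters and is not evidence of binding. The deposited gene models differ from RefSeq: MCM6 starts upstream at 15917042 and PCNA, on the minus strand, at 14185276, and this PCNA model shares 33720 bases with CDS2 on the opposite strand, whose FPKM averaged 1.62 over cells. Shared bases were taken over whole gene spans, introns included, while FPKM of PCNA used 2443 bases of its 48391-base span. How many of the bases used are shared was not examined. Since no strandedness is given for these libraries, reads in shared bases that were counted cannot be divided between genes on opposite strands. The same holds for MCM4 and PRKDC, MCM6 and SNORA33, MCM7 with AP4M1 and COPS6, and GMNN with ENSSSCG00000001097. TAF6 shares bases with MCM7 on the same strand, where strand would not divide the reads either.

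MCM2, MCM4 and MCM7 were each found in a minority of the 4- and 8-cell blastomeres. MCM2 was at least 1 FPKM in all 6 IVF 2-cell blastomeres (2.82 to 5.59) but in 1 of 6 in PA (30.6, in 3-1). At the 4- and 8-cell stages it was at least 1 FPKM in 2 of 24, IVF 4-cell 3-1 with 57.3 and IVF 8-cell 1-1 with 101 FPKM, while no other of these 24 exceeded 0.305. IVF 8-cell 1-1 had the fewest reads on genes of the 42 cells (5641471). It also had the highest MCM3 and GMNN of the IVF 8-cell blastomeres. MCM4 was at least 1 FPKM in 14 of 18 1- and 2-cell stage cells and 5 of 24 later ones, or 3 of 22 without the repeats, which had 5.06 and 3.90 FPKM. It reached 30.5 in IVF 4-cell 3-3 and 131 in PA 4-cell 3-4, and in the 8-cell blastomeres it was at most 0.0220. MCM7 was at least 1 FPKM in 2 of 9 IVF 4-cell blastomeres, 1-2 with 35.1 and 1-4 with 8.84, and in 4 of 7 PA 4-cell blastomeres other than the repeats, 1-3 with 89.7, 2-2 with 12.7, 3-3 with 9.84 and 3-4 with 8.73. More than 1 of these 3 genes was found in 2 of the 24, PA 4-cell 3-4 and the repeat PA 4-cell 1-4, both with MCM4 and MCM7. For MCM7, IVF against PA 4-cell embryos gave -2.15 ± 1.02 (adjusted p = 0.357), and without the repeats -2.49 ± 1.07 (adjusted p = 0.2). With all cells, leaving out 1 embryo in turn gave -3.42 to -1.04. The MCM2 change from IVF 4- to 8-cell was 3.79 ± 1.56 (adjusted p = 0.172), and it rests on 1 of 3 blastomeres of 1 embryo.

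Of the licensing genes, CDC6 loads the helicase and GMNN limits it. CDC6 was 10.4, 4.71 and 7.37 FPKM in IVF 1-cell embryos and 0.459, 7.06 and 0.0149 in PA ones, and the change from PA was 1.84 ± 1.03 (adjusted p = 1). Of the 24 4- and 8-cell blastomeres, 5 had at least 1 FPKM of CDC6: IVF 4-cell 2-3 with 12.6 and 3-2 with 10.5, IVF 8-cell 1-3 with 3.76, PA 4-cell 1-3 with 9.35, and the repeat PA 4-cell 2-1 with 16.6. GMNN was 6.03, 6.54 and 6.57 FPKM in PA 1-cell embryos (SD 0.301), and 14.8, 4.59 and 3.67 in IVF ones. At the 8-cell stage it was 36.6, 3.04 and 0.522 in IVF and 0.00639, 0.0235 and 60.5 in PA blastomeres, so that a single sister carried most of it in each method. The GMNN step from PA 4- to 8-cell was 2.70 ± 1.42 (adjusted p = 0.305), and 3.48 ± 1.50 (adjusted p = 0.19) without the repeats.

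Comparisons were made between consecutive stages of a method, between the methods up to the 4-cell stage, and between the methods' steps. With all cells, 0 members passed the test (limma on 8116 genes, adjusted p below 0.05 and at least 2-fold) in each of the 11 comparisons other than IVF 2- to 4-cell. The share of all tested genes called was 0% from IVF 1- to 2-cell, 6.97% from IVF 4- to 8-cell, 0.0986% from PA 1- to 2-cell, 0.394% from PA 2- to 4-cell, 9.99% from PA 4- to 8-cell, 0.0493%, 0% and 0.554% between the methods at 1-, 2- and 4-cell, and 0%, 0% and 2.86% for the differences between methods in the 3 steps. Unadjusted p values below 0.05 were given by 2 members from IVF 4- to 8-cell (MCM2 and MCM6), 1 between IVF and PA 4-cell embryos (MCM7), 1 in the difference between methods from 4- to 8-cell (MCM6), and 0 in the others of these comparisons. Over all 8116 genes, 1574, 1134 and 1175 were below that limit in these 3 comparisons, so the members' counts are not set apart from the background. Between IVF and PA 1-cell embryos the members lay between -1.12 (MCM3) and 1.84 (CDC6), and between 2-cell embryos between -1.62 (MCM7) and 1.81 (MCM6). The median SE of a log2 fold change over all genes was 0.82 between groups of 3 embryos, and the members' SE was 0.76 to 1.10.

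Genes of the wider replication machinery, 83 listed with 78 matched and 60 tested, were examined in the same fit. With all cells, none was called from 1- to 2-cell in either method or from PA 2- to 4-cell. Each 8-cell group is 1 embryo, so the changes to the 8-cell stage compare that embryo with the 4-cell embryos, on the assumption that it varies as embryos of the other groups do. From IVF 4- to 8-cell, 1 of 60 rose and 4 fell in this fit, against 3.72% and 3.25% of all tested genes, and with the compared groups alone 0 of all 8116 genes were called. UBE2B, an E2 enzyme that works with RAD18 to ubiquitinate PCNA, rose by 4.26 ± 1.11 (adjusted p = 0.021), from 0.0558 to 19.3 FPKM. TICRR, which helps to fire licensed origins, fell by 3.96 on the log2 scale (SE 0.93, adjusted p = 0.0111), from 16.2 ± 6.87 to 0.0300 FPKM. WDHD1, which ties polymerase alpha to the helicase, fell by 5.47 (adjusted p = 0.0251), and POLD3, a subunit of polymerase delta, fell by 5.42 (adjusted p = 0.00653). CUL4B, the scaffold of a ligase that degrades CDT1, fell by 5.37 (adjusted p = 0.000717), from 50.9 ± 28.1 to 0.120 FPKM. The median of the 60 was -0.76, against -0.38 over all tested genes. By median ratio scaling the balance turned: 5 of the 60 were called higher and 2 lower, where 973 and 173 of all 8095 genes were. The median of the 60 was then -0.21. Without the PA repeats, which enter this step through the pooled spread, WDHD1 was not called, nor was it without IVF 4-cell embryo 1 (adjusted p = 0.0558) or without the PA 2-cell copies (adjusted p = 0.0501). With log2 values averaged over blastomeres UBE2B was 2.99 and lost its call (adjusted p = 0.0739), and with cells fitted under a correlation within embryos POLD3 was -4.07 and lost its call (adjusted p = 0.0574). By median ratio scaling, CUL4B was -4.82 and WDHD1 -4.77, and neither was called (adjusted p = 0.075 and 0.214), and WDHD1 was not called with a pseudocount of 5 or without the filter (adjusted p = 0.0863 and 0.0503).

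From PA 4- to the single PA 8-cell embryo, 4 of the 60 rose and 1 fell in the fit of all groups, against 6.81% and 3.18% of all tested genes. TICRR rose by 4.65 ± 0.93 (adjusted p = 0.0029), from 0.952 ± 0.913 to 44.4 FPKM, and UBE2B by 4.46 ± 1.11 (adjusted p = 0.0131), to 23.4 FPKM, from 1 of 3 blastomeres. PRIM1, the catalytic subunit of primase, rose by 4.33 ± 0.96 (adjusted p = 0.00619), with 19.4 FPKM from 1 of 3 blastomeres, and ATAD5, which unloads PCNA from DNA, by 4.64 ± 1.41 (adjusted p = 0.0411), with a highest blastomere of 98.5 FPKM that carried most of its mean of 33.2. CLSPN, which links the fork to checkpoint signalling, fell by 3.57 on the log2 scale (adjusted p = 0.049). Leaving out 1 embryo in turn, ATAD5 lost its call in 10 of 18 fits and CLSPN in 14 of 18, and both lost it without the PA 2-cell copies (adjusted p = 0.0544 and 0.0919). With log2 values averaged over blastomeres, TICRR alone of the 5 was called (3.29, adjusted p = 0.0388), while PRIM1 was 1.95, UBE2B 1.97, ATAD5 2.22 and CLSPN -2.67 (adjusted p = 0.27, 0.33, 0.547 and 0.286). With cells fitted under a correlation within embryos, TICRR was again the one called, and adjusted p was 0.0714 for PRIM1, 0.243 for UBE2B, 0.282 for ATAD5 and 0.273 for CLSPN. Without the repeats these 5 were called too, and POLA1, the catalytic subunit of polymerase alpha, rose by 3.79 ± 1.06 (adjusted p = 0.0269). The step differed between IVF and PA for TICRR by -8.61 ± 1.32 (adjusted p = 0.00183) and for CUL4B by -7.07 ± 1.27 (adjusted p = 0.00618), and without the repeats by -9.11 and -8.17 (adjusted p = 0.000921 and 0.0405). In the paper the IVF 8-cell embryo was classed as male and the PA one as female. Method and sex cannot be told apart there. From PA 4- to 8-cell, ATAD5 was also not called without the filter (4.64) or with nuclear genes rescaled to the same total (4.34). CLSPN was not called there with a pseudocount of 5 (-2.14), without the filter (-3.57) or by median ratio scaling (-3.09). Fitted on the compared groups alone, none of the 60 was called in either 4- to 8-cell step or between IVF and PA 4-cell embryos. Between the methods from 4- to 8-cell that fit called GINS1 and PRIM1, and neither TICRR nor CUL4B. CUL4B was not called there with log2 values averaged over blastomeres (-4.74, adjusted p = 0.233) or with cells under a correlation within embryos (-4.57, adjusted p = 0.348), where TICRR was. Between IVF and PA 4-cell embryos, TICRR alone of the 60 was called, 3.15 ± 0.66 higher in IVF (adjusted p = 0.0426), and without the repeats it was 3.65 ± 0.66 higher (adjusted p = 0.0047) and ORC3, of the origin recognition complex, was 2.66 ± 0.72 higher (adjusted p = 0.0435). With all cells, this TICRR call was lost in 14 of 18 fits that left out 1 embryo, with log2 values averaged over blastomeres (2.66, adjusted p = 0.113), with cells under a correlation within embryos (2.47, adjusted p = 0.0934) and without the PA 2-cell copies (adjusted p = 0.0511). By median ratio scaling, 5 of the 60 were called between these embryos, 1 higher and 4 lower in IVF, where 92 and 274 of all 8095 genes were.

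Without the repeats, 7 of the 60 were called from PA 2- to 4-cell, against 7.41% of all tested genes. MCM8, an MCM relative in recombination, rose by 2.90 ± 0.72 (adjusted p = 0.0169), and CDC45, which joins the MCM ring in the active helicase, rose by 2.82 ± 0.81 (adjusted p = 0.0379). TYMS, which makes the thymidine precursor dTMP, fell by 5.91 on the log2 scale (adjusted p = 0.000319), RFC4, of the clamp loader, fell by 3.24, UBE2A, a relative of UBE2B, fell by 4.12, DONSON, a fork factor, fell by 3.13, and TICRR fell by 2.33. With the repeats none of the 60 was called in this step, against 0.394% of all tested genes. Median ratio scaling called 5, all higher at the 4-cell stage. Averaged log2 values and cells under a correlation within embryos each called 2, all lower. The shares of all tested genes called under these alternatives are not given here, so nothing is read from these counts. In IVF embryos TYMS averaged 99.3 FPKM at 1-cell, 83.8 at 2-cell and 10.9 ± 9.40 at the 4-cell stage, a log2 fold change from 2- to 4-cell of -3.47 ± 0.99, as a description.

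The genes whose embryo profile was most like that of PCNA were DENND1B, PSPH, ENSSSCG00000036659, KDELR2 and ICA1, with Pearson's r of log2 values from 0.934 to 0.946 over 20 embryos, and from 0.917 to 0.937 without the repeats, where 4 of the 5 were again among the first 5. None of them is in the replication lists, and their levels were lower: DENND1B averaged 28.4 ± 9.28 FPKM in PA 1-cell embryos and 0.209 in PA 8-cell blastomeres, and PSPH, an enzyme of serine synthesis, 139 ± 18.3 and 0.150.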

How the data were processed

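Single cells were amplified with Ansuper-seq, sequenced as paired reads, mapped to Sscrofa11.1 with HISAT2, assembled with StringTie and counted with HTSeq, and the authors deposited FPKM per gene and cell. Versions, gene annotation and strandedness are not given in the sources used here, and the labels' extraction protocol names another kit (Trizol and TruSeq). Whole reads were recovered from the FPKM steps for 14692 of 14692 genes above 0 (tolerance 0.02 reads) to show depth only, and intervals from them would cover counting error only. Log2 of the embryo mean FPKM plus 1 was fitted with limma 3.58.1 (R 4.3.3) in 8 groups with a mean-variance trend and Benjamini-Hochberg adjustment, for the 8116 genes that reached 1 FPKM in 3 or more cells. Other values used Python 3.11.15, pandas 2.3.3 and numpy 2.4.6, and figures matplotlib 3.10.9. The fit was run on simulated normal values with known changes and the same spread per gene in every group. That run therefore cannot test the spread assumed for the 8-cell embryos. Named genes were all members, replication genes called, and those most like PCNA. The members, lists and rules were chosen with earlier results of these data known. MII oocytes were not analysed here. Separate cultures are not stated, so p-values measure the spread between these embryos.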

Additional observations from a re-analysis of the deposited data

Results flagged for a closer look

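In groups of 6 or 9 cells, 5 of 32 sets of member values had a cell far from the others. Chance flags about 1 in 20 sets of independent normal values, but the same check flagged 36.2% of the sets of all tested genes, and nothing is read from the count over the members. MCM2 was 57.3 FPKM in IVF 4-cell 3-1 (the others at most 0.0296), 30.6 in PA 2-cell 3-1 (at most 0.471), and 0.305 in the repeat PA 4-cell 2-1 (at most 0.143). MCM4 was 131 FPKM in PA 4-cell 3-4 (at most 5.06), and GMNN was 38.7 in IVF 4-cell 2-2 (at most 2.04). Sisters share an embryo, and the cause of these values was not tested.

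A test of the difference itself (limma, with the spread pooled over all groups) called the step from 4- to 8-cell as differing between IVF and PA embryos for TICRR (log2 difference -8.61, SE 1.32, adjusted p = 0.00183) and CUL4B (-7.07, SE 1.27, adjusted p = 0.00618). Neither was called in a fit of the compared groups alone (adjusted p = 0.0663 and 0.226), and CUL4B was not called with log2 values averaged over blastomeres (-4.74, adjusted p = 0.233) or with cells under a correlation within embryos (-4.57, adjusted p = 0.348). Each 8-cell group is 1 embryo, whose spread was taken from the other groups. The paper classed the IVF one as male and the PA one as female, so method and sex cannot be told apart.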

How the results depend on the processing

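Over 31 alternatives, 18 of them leaving out 1 embryo in turn, 6 of the 11 counts of members called stayed at 0 throughout. By median ratio scaling, 2 members were called from IVF 4- to 8-cell (MCM2 5.34, MCM3 4.00), 2 from PA 2- to 4-cell (MCM3 3.34, MCM7 3.89), and 1 each from PA 4- to 8-cell (MCM6 5.13), between IVF and PA 4-cell embryos (MCM7 -5.09) and between methods from 4- to 8-cell (MCM6 -6.79). Of all tested genes, that scaling also called more from IVF 4- to 8-cell and between IVF and PA 4-cell embryos. Shares for the other comparisons are not given, so nothing is read from these member counts. That scaling used 1064 genes. It moved the median of all genes from -0.17 to 0.12 in the PA 2- to 4-cell step, where PCNA reversed to 0.68. From IVF 4- to 8-cell PCNA, as a description, was 0.52. Without the repeats, 1 member (MCM6) was called in each of the last 3. Leaving out 1 embryo gave 0 to 1 members from IVF 4- to 8-cell (MCM2 5.10, without IVF 4-cell embryo 3) and between IVF and PA 4-cell embryos (MCM7 -3.42, without IVF 4-cell embryo 1). It gave -1.98 to 0.22 for MCM6 and -0.65 to 1.21 for MCM7 from PA 2- to 4-cell, where both changed sign, and -3.55 to -1.22 for PCNA from IVF 2- to 4-cell, as a description. For PCNA it gave -2.82 to -0.48 from IVF 4- to 8-cell, also a description, and -2.07 to -0.68 from PA 2- to 4-cell. For MCM6 it gave 0.97 to 3.06 between IVF and PA 4-cell embryos, and 1.36 to 3.46 from PA 4- to 8-cell. Of the 60 wider replication genes, leaving out 1 embryo gave 5 to 9 calls from IVF 4- to 8-cell, 3 to 8 from PA 4- to 8-cell, 0 to 1 from PA 2- to 4-cell, 0 to 1 between IVF and PA 4-cell embryos and 2 to 4 between methods from 4- to 8-cell. The other alternatives gave 0 to 8, 0 to 13, 0 to 7, 0 to 5 and 1 to 8. Shares of all tested genes called are not given for every alternative, so nothing is read from these ranges about replication genes. Leaving out an 8-cell embryo was not possible. The cause of these changes was not tested. Of 45 same-numbered pairs of embryos, 4 had r above 0.1. They include PA 2- against 4-cell embryos 1, 2 and 3 (0.355, 0.282 and 0.10015), where r was -0.013, 0.0086 and -0.0056 without the repeats, so the numbers were not taken to pair the samples. With the embryo number as a replicate block 0 members were called in each comparison, and of the wider genes UBE2B from IVF 4- to 8-cell (adjusted p = 0.0546) and CLSPN from PA 4- to 8-cell (adjusted p = 0.0564) lost their calls. The number of embryos, 1 per method at the 8-cell stage, limits these results.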
